A study of Mus musculus with 12 samples.

Results

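RNA-seq of mouse fibroblasts was used to follow 10 genes of the transforming growth factor beta (TGF-beta) system, listed by symbol: the ligands Tgfb1, Tgfb2 and Tgfb3, the latent binding protein Ltbp1, the receptors Tgfbr1 and Tgfbr2, the thrombospondins Thbs1 and Thbs2, and 2 genes that TGF-beta induces, Tgfbi and Skil. All 10 symbols were found among the 49671 genes of the count files, and all 10 were among the 18668 genes tested, that is those counted more than 1 time in 3 or more libraries.

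TGF-beta is secreted in a latent form, in which the cleaved propeptide still covers the ligand and a latent TGF-beta binding protein tethers it to the extracellular matrix. Integrins, proteases and thrombospondin 1 can free the ligand, which binds the type II receptor. This recruits and phosphorylates the type I receptor, whose kinase activates SMAD2 and SMAD3. In fibroblasts the pathway is known for raising matrix production and for driving contractile, myofibroblast-like gene expression, and it induces its own inhibitors, among them SMAD7 and the corepressor SnoN (encoded by Skil).

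The cells were NIH 3T3, an immortalized mouse fibroblast line, so the libraries describe 1 line and no animal. They were transfected with a non-targeting control siRNA or with an siRNA against all Lap2 isoforms, the products of Tmpo, which are proteins of the nuclear envelope and the nuclear interior. Cells with either siRNA were kept in 0.3% FBS (serum-starved), or received 15% FBS for 45 min after that (serum-stimulated). This gave 4 groups of 3 libraries, referred to here as control cells and Lap2-depleted cells in each serum condition. RNA was extracted from replicate samples, but the sources used here do not say whether these were separate cultures, so the p-values measure only the spread between these libraries, which may be technical.

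Total counts were 18026298 to 26265253 per library. Tmpo, the siRNA target, was at 2775 to 2885 normalized counts in starved and 3019 to 3264 in stimulated control cells, and at 982 to 1175 and 607 to 767 in Lap2-depleted cells, a knockdown that left 38.4% and 22.2% of the control level. Normalized counts are read counts scaled to a common library size by TMM (trimmed mean of M-values). Scaling to total counts instead moved the median log2 fold change (log2FC) of all tested genes by -0.21 and -0.23 for serum stimulation with control and Lap2 siRNA, and by 0.11 and 0.086 for Lap2 siRNA in 0.3% and 15% FBS. Upper-quartile scaling moved it by -0.096 and -0.11 for serum stimulation. Calls and signs that changed with the scaling, some of them of changes larger than these shifts, are given with each gene. Of 10 fibroblast markers, 9 were above 1 CPM (counts scaled to the library's total) in every library, and Fap was at 0 to 0.131 CPM. The summed fibroblast markers were at 33969 to 34585 CPM in starved and 29022 to 31724 in stimulated control cells, and at 18661 to 21519 and 20069 to 23713 in Lap2-depleted cells. The sum rests mostly on Col1a2, Col3a1, Col1a1 and Vim (medians of 8272, 6937, 6085 and 3926 CPM), as the other markers had medians of at most 585 CPM. The sum was lower in every Lap2-depleted library, so it differed between the siRNAs in each Lap2 siRNA comparison given here, and its part in the results was not tested. Markers of epithelial, endothelial, immune, skeletal muscle and neural cells summed to at most 2.72 CPM for any type in any library, and Krt18, Cd3e, Myod1, Myog and Olig2 were at 0 throughout. In these bulk libraries fewer expressing cells and less RNA per cell cannot be told apart.

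All 10 are protein-coding genes in the mm10 annotation (GENCODE M21), and counts were taken over whole genes. The start regions of 7 of the 10 could be read from RefSeq windows of GRCm38.p6 reaching from 250 bases before to 50 bases after a gene's start, 9 windows in all. Tgfb3, Thbs1 and Skil had no entry. Both strands of the windows were searched for 5 words: the CArG box bound by SRF, the AP-1 word TGANTCA, the cAMP response element TGACGTCA, the TATA box TATAAA, and CAGAC, the short word in SMAD-binding elements. No window held a CArG box or the AP-1 word, which 1.63% and 7.81% of all 32841 windows hold, and this says only that these letters were not in these windows. CAGAC was in 7 of the 9 windows (6 genes), beside 49.6% of all windows. The rarer words were in the windows of 3 genes, which are shown with the word in capitals because these 3 genes, 2 higher and 1 lower in Lap2-depleted cells in both serum conditions, recur in the comparisons below. The Tgfb2 stretch holds TATAAA at -31 to -26 from the start, the Ltbp1 stretch holds TGACGTCA at -73 to -66, and the Thbs2 stretch holds TATAAA read on the opposite strand, at -126 to -121. Positions are counted from the RefSeq start, which for Ltbp1 and Thbs2 lies upstream of the start of the GENCODE gene whose coordinates are given with its values.
Tgfb2, chr1:186706003-186706032, minus strand: ttggggagcacaTATAAAactctgctccgg
Ltbp1, chr17:75005445-75005474, plus strand: gatttgctgccTGACGTCAcgtctgctgca
Thbs2, chr17:14694371-14694400, minus strand: ttgctggttttaTTTATAgcattttatttc
TATAAA was in 13.6% and TGACGTCA in 1.79% of all windows. These matches are a description of the letters, and no binding was measured here.

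The comparisons asked how serum changed the 10 genes with each siRNA, how Lap2 siRNA changed them in each serum condition, and whether the serum response differed between the siRNAs (the interaction). The tests were edgeR's quasi-likelihood tests with Benjamini-Hochberg adjustment over all 18668 genes at 0.05, and a gene past that threshold is called. SE is the standard error of a log2FC. Serum changed 7 of the 10 genes in control cells, where 29.5% of all tested genes were called. The 6 higher stood beside 15.6% of all genes called higher, and the 1 lower beside 13.9%. In Lap2-depleted cells serum changed 9 of the 10, beside 33.2% of all genes, with 7 higher (18.3%) and 2 lower (14.9%). Lap2 siRNA changed 9 of the 10 in starved cells, beside 36.5% of all genes, with 5 higher (17.8%) and 4 lower (18.6%). In stimulated cells it changed 6, beside 23.4%, with 3 higher (11.4%) and 3 lower (12.1%). The interaction was called for 7, beside 13.6%, with 3 positive (7.09%) and 4 negative (6.51%). These shares, and those beside the lists below, are over all 18668 genes tested, which include genes with few counts. With edgeR's stricter filterByExpr filter 13987 genes were tested, of which 5644, 6286, 6777, 4537 and 2671 were called in these comparisons, in that order. The 3 libraries of one group did not overlap the 3 of the other for 7 and 9 of the 10 genes in the serum comparisons with control and Lap2 siRNA, beside 42.0% and 41.7% of all genes. For Lap2 siRNA this held for 10 of the 10 in 0.3% FBS, beside 43.4%, and for 6 in 15% FBS, beside 38.8%. Under scaling to total counts the directions were 4 higher and 3 lower, 5 and 2, 6 and 3, 4 and 3, and 2 and 4, in that order. The median log2FC of the 10 genes was 0.33 and 0.42 for serum with control and Lap2 siRNA (-0.0090 and 0.0030 over all genes), 0.19 and -0.080 for Lap2 siRNA in 0.3% and 15% FBS (0.010 and 0.017), and -0.33 for the interaction (0.020).

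**Figure D1:**
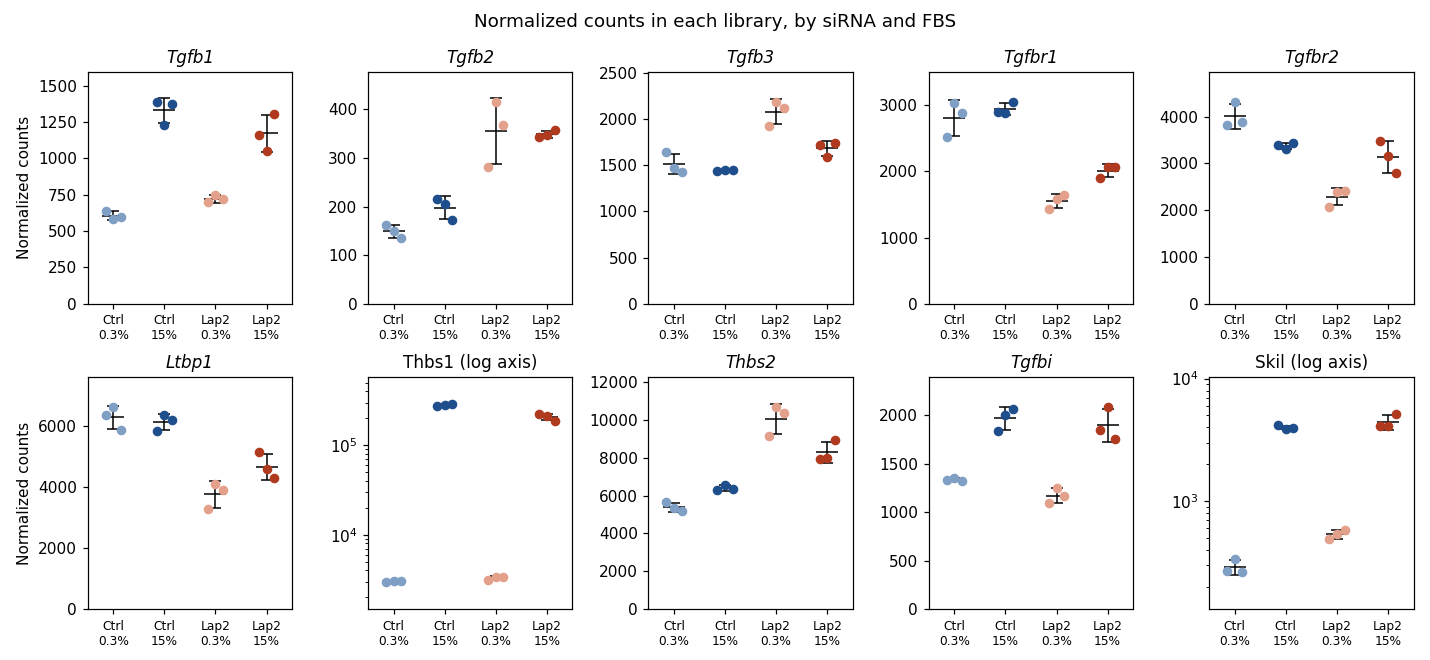
Normalized counts (y axis, log axes for Thbs1 and Skil) of the 10 genes in each of the 12 libraries, grouped by siRNA (Ctrl, control; Lap2) and FBS on the x axis, with the mean and SD of each group of 3. Thbs1 and Skil separate the serum conditions by more than their spread within a group with either siRNA. Within each serum condition the siRNAs do not overlap for Tgfb2, Tgfb3, Tgfbr1, Ltbp1, Thbs1 and Thbs2, beside 43.4% of all genes in 0.3% and 38.8% in 15% FBS. For Thbs1 the order of the siRNAs reverses with serum, though its difference in 0.3% FBS was not called.

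Tgfb1 encodes the founding ligand of the family (ENSMUSG00000002603, chromosome 7 from 25687002 to 25705077 on the plus strand). Its 3 libraries held 641, 581 and 596 normalized counts in starved control cells and 1386, 1231 and 1373 in stimulated control cells. In Lap2-depleted cells they held 698, 751 and 717 in 0.3% FBS and 1163, 1051 and 1302 in 15% FBS. Every stimulated library was above every starved library with the same siRNA, and the starved Lap2-depleted libraries lay above the starved control libraries, while the stimulated libraries of the siRNAs overlapped. Serum raised Tgfb1 2.19-fold in control cells (log2FC 1.13, SE 0.081, edgeR adjusted p = 2.0e-13) and 1.62-fold in Lap2-depleted cells (log2FC 0.70, SE 0.081, edgeR adjusted p = 1.5e-08). The fold response was smaller with Lap2 siRNA (interaction log2FC -0.43, edgeR adjusted p = 0.0084). Lap2 siRNA raised Tgfb1 1.19-fold in 0.3% FBS (log2FC 0.25, SE 0.083, edgeR adjusted p = 0.017). In 15% FBS the log2FC was -0.18 (95% interval -0.33 to -0.028, edgeR adjusted p = 0.097), and it passed the threshold without replicate 1 of starved (-0.19, adjusted p = 0.034) or replicate 3 of stimulated Lap2-depleted cells (-0.28, adjusted p = 0.016).

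Tgfb2 (ENSMUSG00000039239, chromosome 1 from 186622792 to 186705989 on the minus strand) had the lowest counts of the 10 genes in each group. It was at 163, 149 and 136 normalized counts in starved and 217, 206 and 172 in stimulated control cells. Lap2-depleted cells had 281, 415 and 369 in 0.3% FBS and 343, 347 and 357 in 15% FBS. All 6 Lap2-depleted libraries were above all 6 control libraries, and starved Lap2-depleted cells had the widest spread. Lap2 siRNA raised Tgfb2 2.38-fold in 0.3% FBS (log2FC 1.24, SE 0.13, edgeR adjusted p = 1.5e-09), the largest fold difference between the siRNAs among the 10 genes. In 15% FBS the rise was 1.76-fold (log2FC 0.81, SE 0.13, edgeR adjusted p = 7.0e-06). Serum raised Tgfb2 in control cells (log2FC 0.41, SE 0.14, edgeR adjusted p = 0.02), a call lost without any 1 of 3 control libraries (replicate 3 in 0.3% FBS, replicates 1 and 2 in 15% FBS; adjusted p 0.066 to 0.11) under scaling to total counts (log2FC 0.20, adjusted p = 0.25) and under upper-quartile scaling (0.31, adjusted p = 0.072). In Lap2-depleted cells its log2FC with serum was -0.020 (95% interval -0.25 to 0.21, edgeR adjusted p = 0.93). The interaction, -0.43, was not called (edgeR adjusted p = 0.12) except without replicate 1 of starved Lap2-depleted cells (-0.60, adjusted p = 0.0059).

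Tgfb3 (ENSMUSG00000021253, chromosome 12 from 86056745 to 86079041 on the minus strand) encodes the third ligand. Control cells had 1639.9, 1471 and 1430.3 normalized counts in 0.3% FBS and 1439, 1445 and 1442 in 15% FBS, and Lap2-depleted cells 1923, 2181 and 2121 and 1722, 1584 and 1737. The Lap2-depleted libraries were the higher in each serum condition, and in starved cells the gap between the groups was wider. Lap2 siRNA raised Tgfb3 1.37-fold in 0.3% FBS (log2FC 0.45, SE 0.070, edgeR adjusted p = 2.3e-06) and 1.17-fold in 15% FBS (log2FC 0.22, SE 0.070, edgeR adjusted p = 0.019). The call in 15% FBS was lost without any 1 of 4 libraries (replicates 1 and 2 of stimulated control and 1 and 3 of stimulated Lap2-depleted cells; adjusted p 0.057 to 0.11). Serum lowered Tgfb3 in Lap2-depleted cells (log2FC -0.30, SE 0.069, edgeR adjusted p = 7.3e-04). In control cells the log2FC was -0.070 (95% interval -0.21 to 0.068, edgeR adjusted p = 0.52), which became -0.28 (adjusted p = 0.0017) under scaling to total counts. The difference between these serum responses, -0.23, was not called (edgeR adjusted p = 0.13), but was without replicate 1 of starved control (adjusted p = 0.031) or of starved Lap2-depleted cells (adjusted p = 0.0080).

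Compared per kb of merged annotated exon (5042 bases for Tgfb1, 5791 for Tgfb2 and 3383 for Tgfb3), Tgfb3 made up most of the summed ligand level in each group. The lengths of the transcripts expressed were not measured, so shares between genes depend on these annotated lengths. Before division by length, stimulated control cells had means of 1330 normalized counts for Tgfb1 and 1442 for Tgfb3. The Tgfb3 share was 75.4% ± 0.443 (SD, n = 3) in starved and 58.9% ± 1.41 in stimulated control cells, and 75.0% ± 0.438 and 63.0% ± 1.18 in Lap2-depleted cells. The Tgfb1 share moved the other way with serum, from 20.3% ± 0.591 to 36.4% ± 1.61 in control and from 17.5% ± 0.686 to 29.4% ± 1.42 in Lap2-depleted cells. Tgfb2 stayed the smallest, with 4.34% ± 0.163 and 4.72% ± 0.563 in control cells and 7.45% ± 0.944 and 7.65% ± 0.415 in Lap2-depleted cells. The summed ligand level per kb was 593 ± 40.7 (SD, n = 3) in starved and 724 ± 15.8 in stimulated control cells, and 818 ± 56.6 and 789.7 ± 49.1 in Lap2-depleted cells. Starved Lap2-depleted cells thus had 1.38 times the summed ligand level of starved control cells, and stimulated ones 1.09 times. These sums and shares were not tested.

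**Figure D2:**
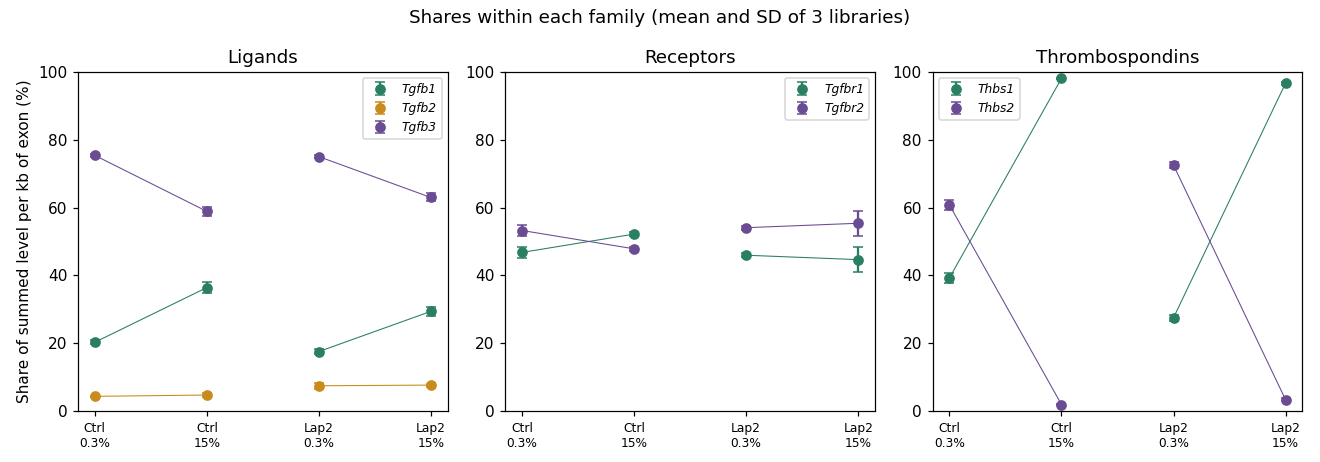
Share (y axis, percent) of each gene in the summed level per kb of exon of the 3 ligands, the 2 receptors and the 2 thrombospondins, by siRNA and FBS on the x axis, as the mean and SD of 3 libraries; lines join the serum conditions of an siRNA. Serum shifts the ligands from Tgfb3 towards Tgfb1 and the thrombospondins from Thbs2 to Thbs1, and the receptor shares stay between 40.7% and 59.3% in every library.

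Ltbp1 encodes latent TGF-beta binding protein 1, which tethers the latent ligand to the matrix (ENSMUSG00000001870, chromosome 17 from 75005568 to 75392512 on the plus strand). The libraries had 6343, 6593 and 5857 normalized counts in starved and 5836, 6354 and 6166 in stimulated control cells. In Lap2-depleted cells they had 3261, 4093 and 3904 and 5122, 4569 and 4279. All 6 Lap2-depleted libraries were below all 6 control libraries. Ltbp1 fell with Lap2 siRNA to 59.9% of the control level in 0.3% FBS (log2FC -0.74, SE 0.075, edgeR adjusted p = 9.6e-10) and to 76.1% in 15% FBS (log2FC -0.39, SE 0.075, edgeR adjusted p = 1.3e-04). Serum raised it in Lap2-depleted cells (log2FC 0.31, SE 0.075, edgeR adjusted p = 0.0013), where scaling to total counts gave 0.080 (adjusted p = 0.43). In control cells the log2FC was -0.034 (95% interval -0.18 to 0.11, edgeR adjusted p = 0.8), and -0.24 (adjusted p = 0.0086) under scaling to total counts. The interaction of 0.35 (edgeR adjusted p = 0.025) was lost without any 1 of 5 libraries (replicates 1 and 2 of starved control, and replicate 1 of each other group; adjusted p 0.059 to 0.14).

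The receptors were both lower in starved Lap2-depleted cells. Tgfbr1, the type I receptor kinase that phosphorylates SMAD2 and SMAD3 (ENSMUSG00000007613, chromosome 4 from 47353222 to 47414931 on the plus strand), had 2512, 3037 and 2889.7 normalized counts in starved and 2902, 2875 and 3047 in stimulated control cells. With Lap2 siRNA it had 1431, 1581 and 1645 and 1899, 2071 and 2067. Its 6 Lap2-depleted libraries were all below its 6 control libraries. It fell to 55.2% of the control level in 0.3% FBS (log2FC -0.86, SE 0.072, edgeR adjusted p = 1.4e-11) and to 68.4% in 15% FBS (log2FC -0.55, SE 0.072, edgeR adjusted p = 3.9e-07). Serum raised Tgfbr1 in Lap2-depleted cells (log2FC 0.38, SE 0.073, edgeR adjusted p = 9.8e-05), a call lost under scaling to total counts (0.15, adjusted p = 0.12). In control cells its log2FC was 0.064 (95% interval -0.075 to 0.20, edgeR adjusted p = 0.57), with a negative sign under scaling to total counts (-0.14) or to the upper quartile (-0.032). The interaction of 0.31 (edgeR adjusted p = 0.036) was lost under scaling to total counts (0.29, adjusted p = 0.056) and without any 1 of 8 of the 12 libraries (replicates 2 and 3 of starved and 1 and 2 of stimulated control cells, and replicates 1 and 2 of starved and 2 and 3 of stimulated Lap2-depleted cells; adjusted p 0.075 to 0.21).

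Tgfbr2, the ligand-binding type II receptor (ENSMUSG00000032440, chromosome 9 from 116084293 to 116175360 on the minus strand), had 3816, 4311 and 3887 normalized counts in starved and 3398, 3303 and 3430.4 in stimulated control cells. Lap2-depleted cells had 2076, 2389 and 2404 in 0.3% FBS and 3471, 3152 and 2795 in 15% FBS. The starved Lap2-depleted libraries were below all others, and the stimulated libraries of the siRNAs overlapped. Lap2 siRNA lowered Tgfbr2 to 57.2% of the control level in 0.3% FBS (log2FC -0.81, SE 0.074, edgeR adjusted p = 8.8e-11). In 15% FBS the log2FC was -0.11 (95% interval -0.25 to 0.037, edgeR adjusted p = 0.35). Serum lowered Tgfbr2 in control cells (log2FC -0.25, SE 0.073, edgeR adjusted p = 0.0085), a call lost without replicate 2 of starved control cells (-0.17, adjusted p = 0.12), and raised it in Lap2-depleted cells (log2FC 0.46, SE 0.074, edgeR adjusted p = 7.4e-06). The interaction, 0.70 (SE 0.10, edgeR adjusted p = 7.9e-06), was the largest positive one of the 10 genes. Per kb of exon the summed receptor level was 919.7 ± 70.4 (SD, n = 3) in starved and 863 ± 21.1 in stimulated control cells, and 517 ± 39.2 and 691 ± 29.9 in Lap2-depleted cells, or 0.562 and 0.802 of control. The receptor sums of the starved Lap2-depleted libraries, 473 to 545, were below those of all other libraries. Their ligand sums, 755 to 865, were above those of all control libraries but overlapped those of stimulated Lap2-depleted libraries, 737 to 834.

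**Figure D3:**
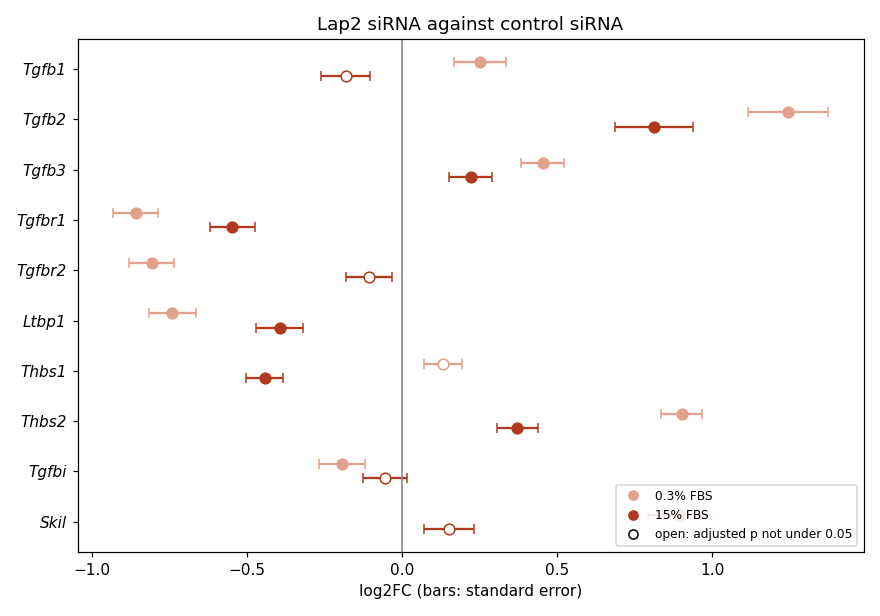
log2FC of Lap2 siRNA against control siRNA (x axis) for the 10 genes in 0.3% and 15% FBS, with the standard error as bars; open points have an edgeR adjusted p of 0.05 or more. The ligands Tgfb2 and Tgfb3 and Thbs2 lie right of 0 and Tgfbr1 and Ltbp1 left of it in both serum conditions, and Tgfbr2 and Skil are near 0 in 15% FBS.

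Thbs1 encodes thrombospondin 1, a matrix glycoprotein that can activate latent TGF-beta (ENSMUSG00000040152, chromosome 2 from 118111876 to 118127133 on the plus strand). It had the largest serum response of the 10 genes. Starved control cells had 2963, 3016 and 3057 normalized counts and stimulated control cells 275209, 284616 and 288773. Lap2-depleted cells had 3154, 3389 and 3357 in 0.3% FBS and 222031, 213909 and 188517 in 15% FBS. In stimulated cells each Lap2-depleted library was below each control library, and in starved cells each was above, with a small gap. Serum raised Thbs1 93.9-fold in control cells (log2FC 6.55, SE 0.077, edgeR adjusted p = 2.7e-35) and 63.1-fold in Lap2-depleted cells (log2FC 5.98, SE 0.075, edgeR adjusted p = 2.1e-34). The fold response was smaller with Lap2 siRNA (interaction log2FC -0.57, SE 0.086, edgeR adjusted p = 1.0e-05). In 15% FBS the level fell to 73.6% of control (log2FC -0.44, SE 0.060, edgeR adjusted p = 7.2e-07). In 0.3% FBS the log2FC was 0.13 (95% interval 0.010 to 0.25, edgeR adjusted p = 0.1), and it was called without replicate 1 of starved Lap2-depleted cells (0.18, adjusted p = 0.0045) and under scaling to total counts (0.24, adjusted p = 0.0018).

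Thbs1 took 0.0146% to 0.0151% of all counts in starved control libraries, at ranks 1248 to 1294 of all genes by raw count, and 1.18% to 1.22% in stimulated control libraries, at ranks 1 to 2. In Lap2-depleted cells it took 0.0167% to 0.0181% and then 0.854% to 1.00%, where it ranked 3 in each stimulated library. The 45 min of serum thus brought Thbs1 among the most counted genes of the cell with either siRNA. A long noncoding RNA gene on the opposite strand, Gm29233, shares 208 bases of exon with Thbs1. It had 0 to 9 raw counts in starved libraries, 106 to 423 in stimulated control and 69 to 85 in stimulated Lap2-depleted libraries, against at least 192213 for Thbs1 in each stimulated library. Since the use of strand in counting was not stated, reads of the 2 genes in the shared bases cannot be told apart.

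Thbs2 encodes thrombospondin 2, a related matrix protein that lacks the sequence with which thrombospondin 1 activates TGF-beta (ENSMUSG00000023885, chromosome 17 from 14665500 to 14694235 on the minus strand). It had 5649.8, 5315 and 5171 normalized counts in starved and 6284, 6574 and 6354 in stimulated control cells. Lap2-depleted cells had 9150.4, 10657 and 10343 in 0.3% FBS and 7929, 7994 and 8933 in 15% FBS. All Lap2-depleted libraries were above all control libraries, and the order of the serum conditions was opposite with the siRNAs. Lap2 siRNA raised Thbs2 1.87-fold in 0.3% FBS (log2FC 0.90, SE 0.066, edgeR adjusted p = 5.8e-13) and 1.29-fold in 15% FBS (log2FC 0.37, SE 0.066, edgeR adjusted p = 5.0e-05). Serum raised it in control cells (log2FC 0.25, SE 0.066, edgeR adjusted p = 0.0031), a call lost under scaling to total counts (0.044, adjusted p = 0.65) or to the upper quartile (0.16, adjusted p = 0.059), and lowered it in Lap2-depleted cells (log2FC -0.28, SE 0.065, edgeR adjusted p = 9.6e-04). The interaction was -0.53 (SE 0.093, edgeR adjusted p = 9.5e-05). Of the summed thrombospondin level per kb of exon, Thbs1 was 39.3% ± 1.45 (SD, n = 3) in starved control cells and 27.5% ± 0.838 in starved Lap2-depleted cells. After serum it was 98.1% ± 0.0475 and 96.6% ± 0.510.

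Skil encodes SnoN, a corepressor that binds SMAD proteins and is itself induced by TGF-beta (ENSMUSG00000027660, chromosome 3 from 31095058 to 31122577 on the plus strand). The libraries had 267, 334 and 262 normalized counts in starved and 4146, 3871 and 3943 in stimulated control cells. In Lap2-depleted cells they had 493, 536 and 584 and 4065, 4075 and 5146. The starved Lap2-depleted libraries were above the starved control libraries, and the stimulated groups overlapped, with replicate 3 of the Lap2-depleted cells the highest. Serum raised Skil 13.9-fold in control cells (log2FC 3.79, SE 0.098, edgeR adjusted p = 9.8e-26) and 8.24-fold in Lap2-depleted cells (log2FC 3.04, SE 0.092, edgeR adjusted p = 1.1e-23). Lap2 siRNA raised it 1.87-fold in 0.3% FBS (log2FC 0.89, SE 0.10, edgeR adjusted p = 1.1e-08). In 15% FBS the log2FC was 0.15 (95% interval -0.0059 to 0.31, edgeR adjusted p = 0.19), and it was called under scaling to total counts (0.24, adjusted p = 0.025). The interaction of -0.74 (SE 0.13, edgeR adjusted p = 9.6e-05) was the largest of the 10 genes in size.

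Tgfbi encodes a secreted matrix protein named for its induction by TGF-beta (ENSMUSG00000035493, chromosome 13 from 56609523 to 56639562 on the plus strand). It had 1332, 1354 and 1321 normalized counts in starved and 1839, 2007 and 2069.8 in stimulated control cells, and 1091, 1247 and 1171 and 1853, 2084 and 1758 in Lap2-depleted cells. The stimulated libraries were above the starved ones with either siRNA. Serum raised Tgfbi 1.48-fold in control (log2FC 0.56, SE 0.073, edgeR adjusted p = 1.3e-07) and 1.62-fold in Lap2-depleted cells (log2FC 0.70, SE 0.073, edgeR adjusted p = 2.0e-09). The difference between these responses was 0.14 (95% interval -0.064 to 0.34, edgeR adjusted p = 0.45). Lap2 siRNA lowered it in 0.3% FBS (log2FC -0.19, SE 0.074, edgeR adjusted p = 0.04), a call lost with DESeq2 (adjusted p = 0.058), under scaling to total counts (-0.083, adjusted p = 0.42) or to the upper quartile (-0.18, adjusted p = 0.058), and without any 1 of 6 libraries (each starved control library, replicate 2 of stimulated control cells, and replicates 1 and 3 of starved Lap2-depleted cells; adjusted p 0.051 to 0.18). In 15% FBS the log2FC was -0.055 (95% interval -0.19 to 0.086, edgeR adjusted p = 0.67), with a positive sign under scaling to total counts (0.032).

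**Figure D4:**
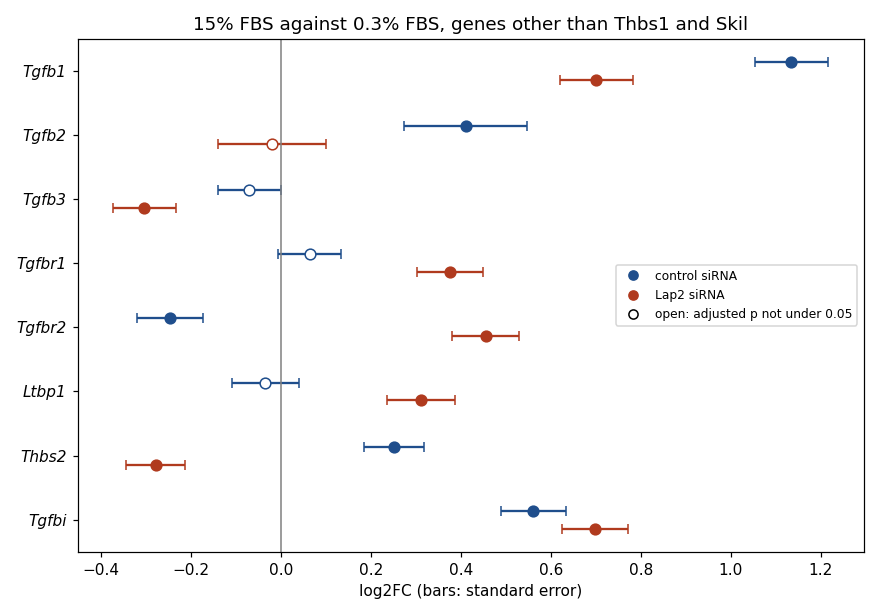
log2FC of 15% against 0.3% FBS (x axis) with control and with Lap2 siRNA for the 8 genes other than Thbs1 and Skil, whose values (6.55 and 5.98, 3.79 and 3.04) lie beyond the axis; bars are standard errors and open points have an edgeR adjusted p of 0.05 or more. Tgfb1 and Tgfbi are right of 0 with both siRNAs, and Tgfbr2 and Thbs2 lie on opposite sides of 0 with the 2 siRNAs.

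The interaction, whose sign is the Lap2 siRNA response minus the control siRNA response, was called for 7 of the 10 genes and not for Tgfb2, Tgfb3 and Tgfbi (edgeR adjusted p = 0.12, 0.13 and 0.45). Thbs1, Skil and Tgfb1, all raised by serum with both siRNAs, had a smaller fold response in Lap2-depleted cells. For Skil and Tgfb1 the starved level was called higher with Lap2 siRNA while the stimulated level was not called different, and for Thbs1 the stimulated level was called lower. Tgfbr1, Tgfbr2 and Ltbp1 had a positive interaction, each with a starved level that Lap2 siRNA had lowered. Thbs2 had a negative one, with a starved level that Lap2 siRNA had raised. These comparisons share libraries, so a high or low starved group enters both the Lap2 siRNA effect in 0.3% FBS and the interaction. The knockdown also differed with serum, as Tmpo was at 38.4% of control in starved and 22.2% in stimulated cells (interaction log2FC -0.79, edgeR adjusted p = 3.0e-06). The Lap2 siRNA effects in the serum conditions, and so the interactions, compare unequal Tmpo levels, whose part in them was not tested.

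The order of the 10 genes by level per kb of exon, which rests on the annotated exon lengths, changed with serum. In starved control cells it ran from Thbs2 (768 ± 35.1, SD, n = 3) over Ltbp1, Thbs1, Tgfbr2, Tgfb3, Tgfbr1, Tgfbi and Tgfb1 to Skil and Tgfb2 (25.8 ± 2.33). The neighbours from Thbs1 to Tgfbr1 overlapped in their libraries, as did Skil and Tgfb2, and the other neighbours did not. In stimulated control cells Thbs1 (46578 ± 1144) led, followed by Thbs2 (914 ± 21.6), Ltbp1, Tgfbi, Tgfbr1, Tgfb3, Tgfbr2, Skil, Tgfb1 and Tgfb2 (34.2 ± 4.03), where Ltbp1 overlapped with Tgfbi and Tgfbr2 with Skil. Starved Lap2-depleted cells had Thbs2 first (1435 ± 114), then Tgfb3, Thbs1, Ltbp1, Tgfbi, Tgfbr2, Tgfbr1, Tgfb1, Tgfb2 and Skil (55.5 ± 4.70), with overlaps between Ltbp1 and Tgfbi, Tgfbi and Tgfbr2, and Tgfb2 and Skil. In stimulated Lap2-depleted cells Thbs1 (34275 ± 2879) and Thbs2 (1183 ± 80.2) came first, Tgfbi, Tgfb3, Skil, Ltbp1 and Tgfbr2 followed with each overlapping the next, and Tgfbr1, Tgfb1 and Tgfb2 (60.3 ± 1.29) were last. Tgfb3 stood at 5 in the order of starved control cells and at 2 in that of starved Lap2-depleted cells.

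For each of the 10 genes, the genes most like it over the 12 libraries were found by Pearson's r of log2 CPM among the 10439 other genes whose mean was 100 normalized counts or more. The points share the 4 groups, so r mostly measures likeness of the group levels and is a description. Thbs1 was most like Nr4a1, Errfi1 and Nr4a3 (r = 0.9998, 0.9998 and 0.9990), which are immediate-early genes of the response to serum and growth factors. Skil was most like Tgif1 (r = 0.998), Nfil3 (0.997) and Mapkapk2 (0.997). Tgif1 encodes another corepressor that binds SMAD proteins. Tgfb1 was most like Slc20a1 (r = 0.991), Trim47 (0.988) and Dyrk3 (0.987), and Tgfbi most like Tmem135 (r = 0.983), Dusp8 (0.981) and Tesk1 (0.981). The receptors and Ltbp1 had other neighbours: Kifap3 (r = 0.993), AW551984 (0.990) and Rab14 (0.984) for Tgfbr1, Pdzrn3 (r = 0.984), Cxcl12 (0.982) and Sfrp2 (0.980) for Tgfbr2, and Itpkb (r = 0.992), Ptprf (0.989) and Gpc4 (0.987) for Ltbp1. Cxcl12 and Sfrp2 encode secreted proteins of fibroblasts. The genes higher in Lap2-depleted cells were most like Mybbp1a (r = 0.993), Ssrp1 (0.992) and Lrpprc (0.989) for Thbs2, Ptbp1 (r = 0.988), Psmd1 (0.981) and Pcbp3 (0.978) for Tgfb2, and Dync1h1 (r = 0.983), Polr1a (0.982) and Cluh (0.974) for Tgfb3.

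The other genes of the pathway were taken from 6 lists with 82 genes, of which 75 were tested. Serum was called for 38 higher and 2 lower in control cells and for 50 higher and 5 lower in Lap2-depleted cells. Lap2 siRNA raised 19 and lowered 34 in starved cells, and raised 13 and lowered 33 in stimulated cells. The shares called were 53.3%, 73.3%, 70.7% and 61.3%, beside the 29.5%, 33.2%, 36.5% and 23.4% over all genes given above. No list was tested as a set.

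The list of latency and activation holds other binding proteins of the latent ligand, integrins, proteases and small proteoglycans, and 18 of its 21 genes were tested. Lap2 siRNA lowered 14 of the 18 in 0.3% FBS and 14 in 15% FBS, beside 18.6% and 12.1% of all genes. It raised 3 and 1, beside 17.8% and 11.4%, so the raised were no larger a share than among all genes. The median log2FC was -0.64 and -0.39, beside 0.010 and 0.017 over all genes. Fmod, the collagen- and TGF-beta-binding proteoglycan fibromodulin, fell from 253 ± 43.8 normalized counts (SD, n = 3) in starved control to 52.3 ± 22.4 in starved Lap2-depleted cells (log2FC -2.29, SE 0.19, edgeR adjusted p = 8.0e-12). Mmp9, a secreted gelatinase, fell from 1799 ± 47.8 to 467 ± 15.8 (log2FC -1.95, SE 0.085, edgeR adjusted p = 2.8e-18). Itgb3, an integrin subunit of a receptor that binds the latent ligand, fell in 0.3% FBS (log2FC -1.63, SE 0.12, edgeR adjusted p = 3.8e-13) and in 15% FBS (log2FC -1.48, SE 0.12, edgeR adjusted p = 8.7e-12). Ltbp4, a relative of Ltbp1, had 2318 ± 98.2 in stimulated control and 1207 ± 131 in stimulated Lap2-depleted cells (log2FC -0.94, SE 0.080, edgeR adjusted p = 4.7e-11). Serum raised 5 of the 18 in control and 10 in Lap2-depleted cells, beside 15.6% and 18.3% of all genes. Plau, the urokinase that activates plasminogen, was highest in both (log2FC 4.19 and 3.64).

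Of the other thrombospondins and thrombospondin receptors, 3 of 5 were tested. Cd47, a receptor of thrombospondin 1, fell with Lap2 siRNA in 0.3% FBS (log2FC -1.08, SE 0.078, edgeR adjusted p = 4.6e-13) and in 15% FBS (log2FC -0.89, SE 0.078, edgeR adjusted p = 9.3e-11). Thbs3 fell likewise (log2FC -0.89, SE 0.092, edgeR adjusted p = 1.2e-09, and log2FC -0.61, SE 0.091, edgeR adjusted p = 3.7e-06), so that Thbs3 and Thbs2 moved in opposite directions with Lap2 siRNA. The 9 other receptors and coreceptors were all tested. Lap2 siRNA lowered 4 and raised 1 in 0.3% FBS, beside 18.6% and 17.8% of all genes, and lowered 3 and raised 1 in 15% FBS, beside 12.1% and 11.4%, so that the 1 raised was no larger a share than among all genes. Bmpr2 (log2FC -0.53, SE 0.080, edgeR adjusted p = 1.9e-06) and Acvr1 (log2FC -0.46, SE 0.075, edgeR adjusted p = 7.9e-06), receptors for bone morphogenetic proteins and activins, were among the lower in 0.3% FBS. In 15% FBS their log2FC were -0.35 and -0.36 (SE 0.079 and 0.074, edgeR adjusted p = 0.0012 and 3.1e-04), and Acvr2a, an activin receptor, was higher (log2FC 0.49, SE 0.10, edgeR adjusted p = 4.8e-04). With serum 3 of the 9 were higher and 1 lower in control cells, beside 15.6% and 13.9% of all genes, so the 1 lower was no larger a share. In Lap2-depleted cells 5 were higher, beside 18.3%. Tgfbr3, the coreceptor betaglycan, was higher with serum in control cells (log2FC 0.38, SE 0.070, edgeR adjusted p = 5.1e-05) and was also called higher in Lap2-depleted cells. Of the SMADs and their cofactors, 8 of 9 were tested, and Lap2 siRNA raised 2 in 0.3% FBS, Smad3 (log2FC 0.30, SE 0.078, edgeR adjusted p = 0.0021) and Ep300 (log2FC 0.26, SE 0.079, edgeR adjusted p = 0.0099), and 1 in 15% FBS, Smad5 (log2FC 0.26, SE 0.070, edgeR adjusted p = 0.0065). None was called lower in either condition, and the calls in both directions were a smaller share of the list than the 36.5% and 23.4% over all genes. Serum raised Smad1 with both siRNAs (log2FC 1.19, SE 0.081, edgeR adjusted p = 6.1e-14, and log2FC 1.17, SE 0.081, edgeR adjusted p = 1.0e-13).

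The 13 inhibitors and feedback genes other than Skil were all tested. Serum raised 10 in control and 10 in Lap2-depleted cells, beside 15.6% and 18.3% of all genes. Lap2 siRNA divided these genes, raising 3 and lowering 4 in 0.3% FBS, beside 17.8% and 18.6% of all genes. In 15% FBS it raised 4 and lowered 4, beside 11.4% and 12.1%. Their median log2FC with Lap2 siRNA was -0.12 and -0.060, beside 0.010 and 0.017 over all genes. Smad7, which blocks the type I receptor, went from 241 ± 35.6 to 3877 ± 89.5 normalized counts (SD, n = 3) in control cells (log2FC 4.01, SE 0.086, edgeR adjusted p = 5.7e-28) and from 584 ± 21.0 to 5185 ± 373 in Lap2-depleted cells (log2FC 3.15, SE 0.079, edgeR adjusted p = 5.8e-26). Like Skil, it was higher with Lap2 siRNA in 0.3% FBS (log2FC 1.28, SE 0.090, edgeR adjusted p = 2.2e-13) and had a smaller serum response (interaction log2FC -0.86, SE 0.11, edgeR adjusted p = 1.3e-06), and unlike Skil it was also called higher in 15% FBS (log2FC 0.42, SE 0.070, edgeR adjusted p = 1.9e-05). Tgif1 rose with serum (log2FC 1.76 in control and 1.51 in Lap2-depleted cells), and Tgif2 was also called higher with serum with both siRNAs. With Lap2 siRNA in 0.3% FBS Tgif1 was higher (log2FC 0.40, SE 0.072, edgeR adjusted p = 2.9e-05). Tgif2 was lower there (log2FC -0.94, SE 0.11, edgeR adjusted p = 1.1e-08) and in 15% FBS (log2FC -0.71, SE 0.097, edgeR adjusted p = 9.4e-07). Smad6 was higher with Lap2 siRNA in 15% FBS (log2FC 1.13, SE 0.099, edgeR adjusted p = 1.1e-10).

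Of 25 genes listed as TGF-beta targets, besides Tgfbi and Skil, 24 were tested. Serum raised 19 and lowered 1 in control cells, beside 15.6% and 13.9% of all genes. In Lap2-depleted cells it raised 20 and lowered 2, beside 18.3% and 14.9%, and the median log2FC was 1.64 with each siRNA. Many of the listed targets are also immediate-early genes of the serum response. Lap2 siRNA divided the list, raising 10 and lowering 10 in starved cells, beside 17.8% and 18.6% of all genes. In stimulated cells it raised 6 and lowered 10, beside 11.4% and 12.1%. Ccn2, a matricellular protein, was higher with Lap2 siRNA in 0.3% FBS (log2FC 2.33, SE 0.098, edgeR adjusted p = 1.2e-18) and lower in 15% FBS (log2FC -1.86, SE 0.085, edgeR adjusted p = 5.7e-17). Postn, the matrix protein periostin, went from 65632 ± 5353 normalized counts (SD, n = 3) in starved control to 12942 ± 855 in starved Lap2-depleted cells (log2FC -2.34, SE 0.082, edgeR adjusted p = 8.4e-21). The contractile genes Acta2 (log2FC -1.73, SE 0.076, edgeR adjusted p = 2.1e-17) and Tagln (log2FC -1.25, SE 0.074, edgeR adjusted p = 1.4e-14) were lower with Lap2 siRNA in 15% FBS. Ccn1 had a smaller serum response with Lap2 siRNA (interaction log2FC -2.01, SE 0.13, edgeR adjusted p = 3.8e-13). Col1a1 and Col1a2 are also among the fibroblast markers, whose sum was lower in every Lap2-depleted library.

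**Figure D5:**
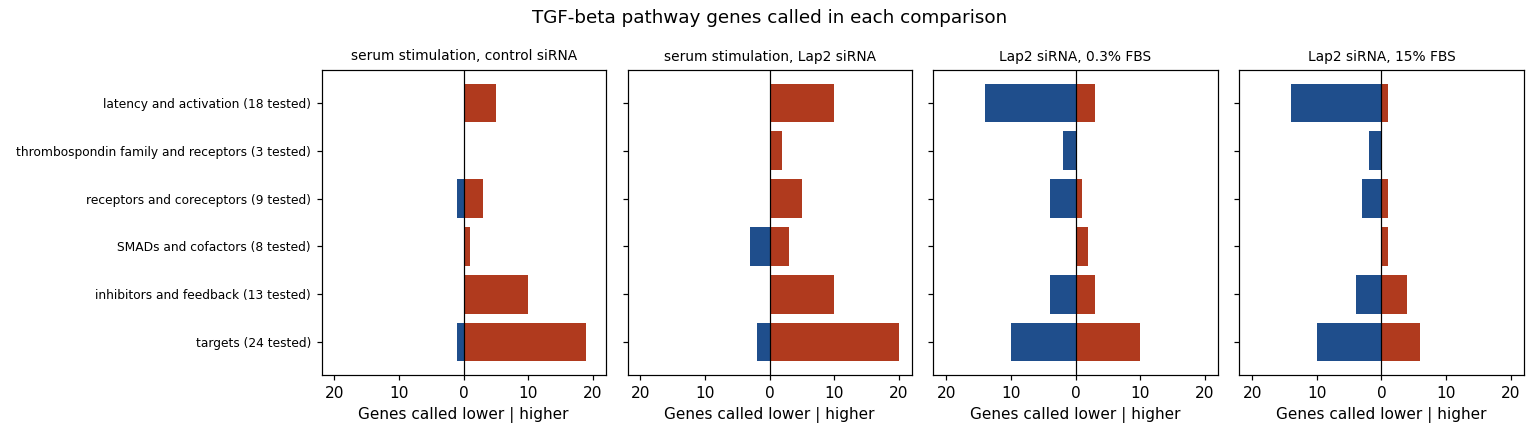
Number of genes called higher (right of 0, red) and lower (left of 0, blue) by edgeR in each of the 6 pathway lists (y axis, with the number tested) in 4 comparisons. The serum panels lie mostly to the right, with 19 and 20 targets higher, beside 15.6% and 18.3% of all genes. The Lap2 siRNA panels show 14 genes of latency and activation lower in each serum condition, beside 18.6% and 12.1% of all genes.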

How the data were processed

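RNA-seq counts of NIH 3T3 cells were analysed for 12 libraries in 4 groups of 3. The siRNA and FBS of each library are as its label gives them, and the stimulation time is as the study's methods give it. Replicates were numbered within each group in the order of the library titles. Libraries were strand-specific, from total RNA without ribosomal RNA. The authors aligned reads to mm10 with TopHat2 (Chipster, default settings), counted reads per gene with HTSeq, and deposited these raw counts without normalization; the submitters' processing notes also list DESeq2. Versions, annotation and the use of strand in counting were not given in the sources used here.

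From the counts, R 4.3.3 with edgeR 4.0.16 was used for TMM scaling and quasi-likelihood tests (glmQLFit, glmQLFTest) with 1 mean per group over the 18668 genes counted more than 1 time in 3 or more libraries, with a Benjamini-Hochberg threshold of 0.05. The 5 contrasts compared the serum conditions within each siRNA, the siRNAs within each serum condition, and the serum responses of the siRNAs (interaction). Normalized counts are counts at the mean of the TMM-scaled library sizes. Levels per kb used the merged exons of GENCODE M21. Log2 CPM used a prior count of 2. The pairing of replicate numbers was checked by the correlation of deviations from the group means. The fit was tested on simulated data. Alternatives were DESeq2 1.42.0, scaling to total counts, upper-quartile scaling, 3 other filters, fits of 2 groups only, the replicate number as a block, and each library left out. Total counts of 18026298 to 26265253 gave the 10 genes standard errors of 0.06 to 0.14 for a log2FC between 2 groups.

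The 10 genes and the pathway and marker lists were chosen with earlier results of these data known. Besides the 10 genes, Tmpo and, for each list and contrast, up to 3 called genes with the largest log2FC in size and a mean of 100 normalized counts or more were described, as were the 3 genes most like each of the 10. Some genes of the pathway and marker lists are counted but not reported here by name. Tables and figures were made with Python 3.11.15, pandas 2.3.3, numpy 2.4.6 and matplotlib 3.10.9.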

Additional observations from a re-analysis of the deposited data

Results flagged for a closer look

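The serum response differed between Lap2-depleted and control cells for 7 of the 10 genes by edgeR's test of the interaction, beside 13.6% of all tested genes. As the response with Lap2 siRNA minus that with control siRNA, the difference in log2FC was -0.74 for Skil (edgeR adjusted p = 9.6e-05), -0.57 for Thbs1 (1.0e-05), -0.53 for Thbs2 (9.5e-05) and -0.43 for Tgfb1 (0.0084). It was 0.70 for Tgfbr2 (edgeR adjusted p = 7.9e-06), 0.35 for Ltbp1 (0.025) and 0.31 for Tgfbr1 (0.036). The differences of Ltbp1 and Tgfbr1 lost their call without any 1 of 5 and 8 libraries, as given above. With groups of 3 libraries, single outlying libraries were not searched for. Without replicate 1 of starved Lap2-depleted cells the interaction was called for 3529 of all genes tested, beside 2540 with all libraries. Leaving out any other library gave 1886 to 2600. Among the 10 genes the interaction was then, without that replicate 1, called for 7, with 1 positive and 6 negative, so the directions given here depend on this library.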

How the results depend on the processing

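The counts of called genes among the 10 kept within 1.5 times their value under each alternative. They were 5 to 7 for serum with control siRNA (7 as reported), 7 to 9 with Lap2 siRNA (9), 8 to 9 for Lap2 siRNA in 0.3% FBS (9), 6 to 7 in 15% FBS (6) and 6 to 7 for the interaction (7). With 1 library left out they were 6 to 7, 9 to 9, 8 to 9, 5 to 7 and 5 to 7. Of 990 log2FC of single genes under an alternative, 937 kept their direction and side of the threshold, 37 lost and 10 gained a call, and 6 changed sign, of which 0 were called. Scaling to total counts accounted for 12 of these changes, upper-quartile scaling for 4, DESeq2 for 1 and a library left out for 36. The sign changes were Tgfbr1 with serum in control cells, at -0.14 with total counts, -0.032 with upper-quartile scaling and from -0.0025 to 0.14 with 1 library left out; Ltbp1 in the same comparison, from -0.069 to 0.022 with 1 library left out; Tgfb2 with serum in Lap2-depleted cells, from -0.18 to 0.094 with 1 library left out; and Tgfbi with Lap2 siRNA in 15% FBS, at 0.032 with total counts. Tmpo with serum in control cells was at -0.036 with total counts. The cause of these changes was not tested beyond the shifts of the median given above.

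Same-numbered libraries did not deviate together. Over 18 same-numbered pairs the correlation of deviations was -0.12 to 0.099, with 0 pairs over 0.1, beside -0.21 to 0.22 over 36 other pairs. Since the numbers follow the order of the titles, this cannot show whether libraries were paired in some other way. With the replicate number as a block the counts were 7, 9, 9, 6 and 7, and 0 calls of the 10 genes changed. Depth limited Tgfb2 most, with 126 to 399 raw counts per library.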
